A study of Rattus norvegicus with 6 samples.

Results

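The transcripts described here are the 10 claudins known for a place in the nephron and its vessels: Cldn1, Cldn2, Cldn3, Cldn4, Cldn5, Cldn7, Cldn8, Cldn10, Cldn16 and Cldn19. They were found by matching the accession of each array probe to a RefSeq symbol, which gave 19 of 61537 probes. All 10 genes and all 19 probes passed the filter on dim probes, and every one of these probes was well above background on all 6 arrays. They stand among 31637 genes tested, 12432 of them with a symbol.

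Claudins seal tight junctions and set which ions pass between the cells of an epithelium. They are membrane-spanning proteins, and their outer loops meet across the gap between neighbouring cells and form either a barrier or a narrow pore. Each part of the nephron carries its own set: pore-forming claudins in the proximal tubule and thick ascending limb, where much salt passes between cells, and barrier claudins in the collecting duct.

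The animals were 6 male rats of the Sprague-Dawley strain (Crl:CD(SD)), bought at 5 weeks of age, and renal cortex RNA of each went on its own array. The control group was 3 rats given corn oil, the vehicle, for 4 weeks. The other group was 3 rats given tricresyl phosphate, which is an organophosphate added to plastics and hydraulic fluids, at 200 mg/kg/day for 4 weeks. All animals shared strain, sex, diet and housing. The comparison asks which claudin transcripts of the cortex differ after exposure. In RNA from a whole tissue, fewer cells of a type and less RNA per cell cannot be told apart.

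Levels are on the log2 scale with the 75th percentile of each array set to 0, so that 0 is the brightness that 75% of the array's probes stay below. A probe's brightness depends on its sequence, so levels are compared between animals for 1 probe and never between genes. Where a gene had several probes the brightest stands for it. Differences are tricresyl phosphate minus corn oil, with standard errors (SE), 95% intervals and p-values from limma.

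The software's call of well above background was met by 41503 to 43823 probes on an array. Arrays correlated with each other at 0.987 to 0.991 over genes. The markers of proximal tubule were all measured (14 of 14), among them Lrp2, the megalin gene, at 6.48 ± 0.05 (SD, n = 3) with corn oil. Markers of thick ascending limb (12 of 12), collecting duct principal cells (11 of 12), intercalated cells (8 of 8) and podocytes (10 of 10) were measured too, and 6 of 9 of the distal convoluted and connecting tubule. The mean of the hepatocyte genes set corn oil replicate 2 and tricresyl phosphate replicate 3 apart. Over 12 genes, centred over the animals, it was 1.22 and 1.07 there and between −1.23 and −0.23 in the other 4 animals. Not every gene followed: Apob in corn oil replicate 2 (−1.86) was below the other controls. Tf in tricresyl phosphate replicate 3 (2.73) was below all controls. Corn oil replicate 1 was alone on its slide and scan, and the other 5 arrays shared another.

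No claudin passed the test at an adjusted limma p under 0.05, where 0% of all genes did. Adjusted limma p-values of the 10 claudins lay between 0.811 and 0.983. At an unadjusted limma p under 0.05 there were again 0 claudins, against 5.49% of all genes, and the lowest unadjusted p was 0.0736, for Cldn4. In none of the 10 did the 3 treated animals all lie above or all lie below the 3 controls, which happened in 11.8% of all genes. The differences of 7 claudins were above 0 and those of 3 below, and 40.8% of all genes had a difference above 0. Their median was 0.14 on the log2 scale, against −0.04 over all genes. An absolute difference of at least 0.3 was found in 3 of the 10, Cldn1, Cldn4 and Cldn19, and in 16.1% of all genes.

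That median depended on single animals. Without tricresyl phosphate replicate 3 it was −0.01, and without tricresyl phosphate replicate 2 it was 0.04, while without tricresyl phosphate replicate 1 it was 0.26. Tricresyl phosphate replicate 3 held the highest level of 6 of the 10 claudins, and tricresyl phosphate replicate 1 the lowest of 4. Treated animals thus lay at both ends. Within the slide that holds both groups, 2 controls and 3 treated animals, the median of the claudins was 0.09. The range over the 6 animals was between 0.29 and 0.96 for the claudins with a median of 0.66, where the median range over all genes was 0.47.

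**Figure D1:**
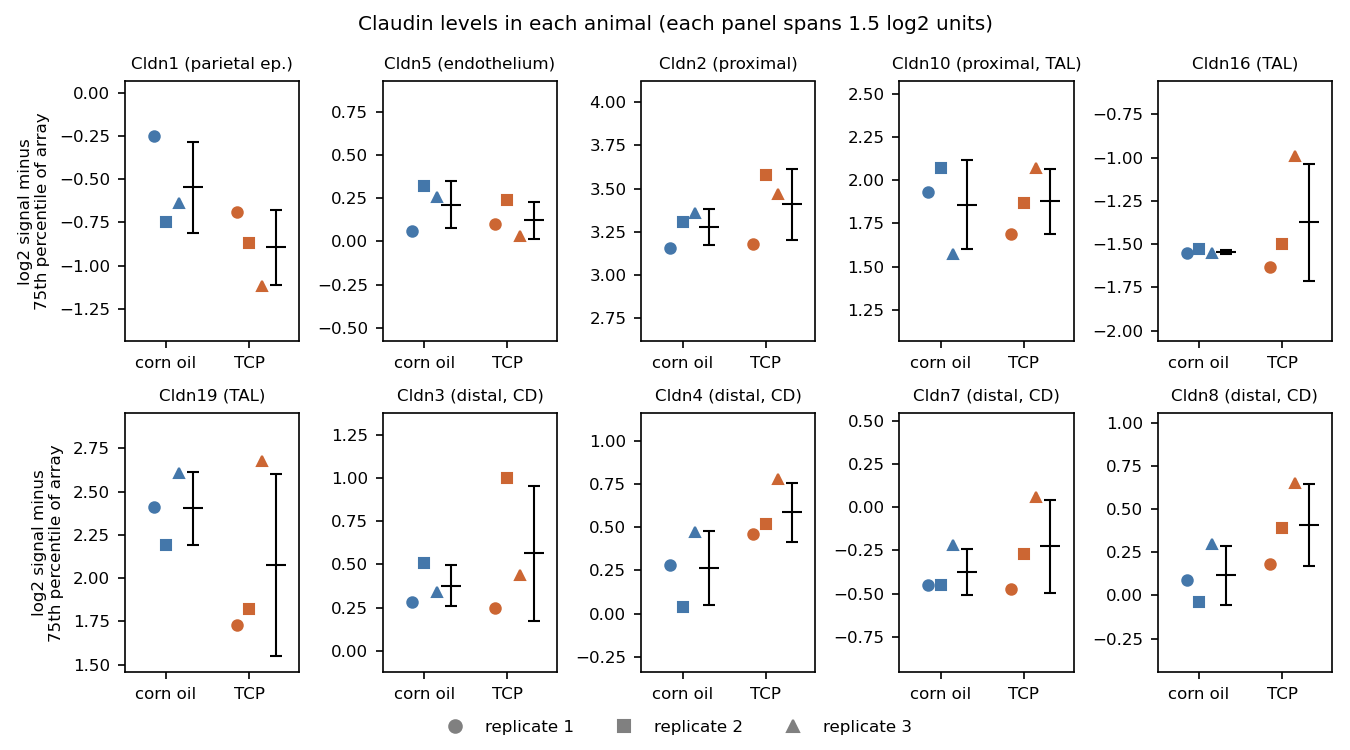
Level of each of the 10 claudins in each animal, as log2 signal minus the 75th percentile of the array, with corn oil in blue and tricresyl phosphate (TCP) in orange; the black bar is the group mean with its SD (n = 3), and every panel spans the same height. TAL is the thick ascending limb and CD the collecting duct. The groups overlap in all 10 panels, and tricresyl phosphate replicate 3 is the highest animal in 6.

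In the proximal tubule, Cldn2 forms the pore through which sodium and water pass between cells. Its level was 3.16, 3.31 and 3.36 in the corn oil animals and 3.18, 3.58 and 3.47 in the tricresyl phosphate animals. Treated replicates 2 and 3 lay above every control, and treated replicate 1 lay with the lowest control. The difference was 0.13 ± 0.13 (SE), with an interval from −0.18 to 0.45 and an adjusted limma p of 0.849. Within the shared slide the difference was 0.07, and it was 0.25 without treated replicate 1 and 0.05 without treated replicate 2. Its dimmer probe differed by 0.16 ± 0.28 (SE), and there corn oil replicate 2 was the highest animal, at 0.55. Proximal tubule markers went the other way as a list: 4 of 14 were higher and 10 lower, with a median of −0.10, and none passed. Over all genes 40.8% were above 0, with a median of −0.04. The groups did not overlap in 3 of the 14, all lower, against 11.8% of all genes in either direction. At an unadjusted limma p under 0.05 there were 2 of the 14, both lower, against 5.49% of all genes in either direction. Lrp2 differed by −0.13 ± 0.09 (SE).

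Cldn10 is made in forms that differ between proximal tubule, where the protein favours anions, and thick ascending limb, where it favours sodium. Its single probe is annotated to the gene and does not separate them. The level was 1.93, 2.07 and 1.57 with corn oil and 1.69, 1.87 and 2.07 with tricresyl phosphate. The treated animals lay inside or at the edge of the span of the controls, and corn oil replicate 3 was the lowest animal. The difference was 0.02 ± 0.17 (SE), with an interval from −0.38 to 0.42, and its sign turned when corn oil replicate 3 (−0.12) or tricresyl phosphate replicate 3 (−0.08) was left out.

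Cldn16 and Cldn19 encode the claudin pair of the thick ascending limb through which magnesium and calcium are taken back, and loss of either gene in humans causes a kidney disease with loss of both ions. Their differences had opposite signs. Cldn19 was at 2.41, 2.19 and 2.61 with corn oil and at 1.73, 1.82 and 2.68 with tricresyl phosphate. Treated replicates 1 and 2 lay below every control and treated replicate 3 above every control. The difference was −0.33 ± 0.27 (SE), 0.798-fold, with an interval from −1.0 to 0.34 and an adjusted limma p of 0.828. It was −0.63 without treated replicate 3, −0.15 without treated replicate 1 and −0.20 without treated replicate 2. In the other probes of Cldn19 treated replicates 1 and 2 were also the lowest animals, but treated replicate 3 lay just under corn oil replicate 3. These probes differed by −0.36 ± 0.26 (SE) and −0.27 ± 0.25 (SE).

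Cldn16 was at −1.55, −1.53 and −1.55 in the controls and at −1.63, −1.50 and −0.99 in the treated animals. The controls lay within a few hundredths of each other, and only treated replicate 3 stood apart, above all others. The difference was 0.17 ± 0.17 (SE), with an interval from −0.25 to 0.60 and an adjusted limma p of 0.853, and it was −0.02 without treated replicate 3. The other Cldn16 probe differed by 0.20 ± 0.17 (SE), and its controls were wider apart, at −1.95, −1.42 and −1.44.

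Other genes of the thick ascending limb did not pass either. Of 12 markers 8 were higher and 4 lower with a median of 0.05. Umod, which encodes uromodulin, differed by −0.12 ± 0.20 (SE), and Slc12a1, the sodium, potassium and chloride cotransporter that drives transport there, by −0.07 ± 0.20 (SE). A dimmer Slc12a1 probe gave 0.09. Centred over the animals, the mean of the marker list was lowest in treated replicate 1 (−0.10) and highest in treated replicate 3 (0.11). The mean of Cldn10, Cldn16 and Cldn19 was also lowest in treated replicate 1 (−0.28) and highest in treated replicate 3 (0.37). The part of the marker level in the claudin levels was not tested.

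The sequences before the RefSeq gene starts of this pair are shown because both genes serve the same segment while their differences had opposite signs. Each is the 250 bases up to the annotated start in assembly GRCr8, written in the direction of the gene, at chr11:87814397-87814646 (- strand) for Cldn16 and chr5:138148325-138148574 (+ strand) for Cldn19. Capitals mark GGGCGG, the GC box bound by Sp factors, on either strand.
Cldn16: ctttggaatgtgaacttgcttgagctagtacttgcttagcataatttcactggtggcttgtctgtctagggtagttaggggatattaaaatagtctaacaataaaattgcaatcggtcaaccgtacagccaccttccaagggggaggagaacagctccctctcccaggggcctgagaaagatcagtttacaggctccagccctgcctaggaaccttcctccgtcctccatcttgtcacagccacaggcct
Cldn19: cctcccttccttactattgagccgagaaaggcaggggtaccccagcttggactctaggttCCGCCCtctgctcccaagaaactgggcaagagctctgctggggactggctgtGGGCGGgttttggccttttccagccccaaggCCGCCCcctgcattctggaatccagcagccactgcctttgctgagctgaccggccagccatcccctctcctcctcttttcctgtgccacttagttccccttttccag
Cldn19 had 3 matches to the GC box and Cldn16 had 0, and the share of G and C bases was 60.0% and 49.2%, against a median of 51.2% over 33469 promoters. The GC box was found in 30.5% of all promoters of this length and in 5 of the 8 claudins with an entry. Other motifs searched on both strands were TATAAA, the TATA box, in 12.9% of all promoters and 0 of 8 claudins; GTTAAT, a half-site of the HNF1 factors, in 6.45% and in 1 of 8, Cldn10; and AACCNGTT, a grainyhead site, in 1.76% and 0 of 8. No matches overlapped in the sequences shown. A match describes the letters and is not a binding site.

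In the distal nephron and collecting duct, all 4 claudins had differences above 0, between 0.15 and 0.32 with a median of 0.24, and none passed. Cldn4 and Cldn8 encode partners in a junction that lets chloride pass in the collecting duct. Cldn4 was at 0.28, 0.04 and 0.47 with corn oil and at 0.46, 0.52 and 0.78 with tricresyl phosphate. Treated replicates 2 and 3 lay above every control, and treated replicate 1 just under the highest control. The difference was 0.32 ± 0.15 (SE), 1.25-fold, with an interval from −0.04 to 0.68 and an adjusted limma p of 0.811. Its dimmer probe differed by 0.33 ± 0.20 (SE), and there treated replicate 2, at −1.34, lay just under corn oil replicate 3, at −1.31. Without corn oil replicate 2, the lowest animal, the difference was 0.21.

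Cldn8 was at 0.09, −0.04 and 0.30 in the controls and at 0.18, 0.39 and 0.65 in the treated animals. Again treated replicates 2 and 3 lay above every control and treated replicate 1 among them. The difference was 0.29 ± 0.15 (SE), 1.22-fold, with an interval from −0.09 to 0.67 and an adjusted limma p of 0.811, and its other probe differed by 0.32 ± 0.17 (SE). Without treated replicate 3 the value was 0.17, and without it and corn oil replicate 2, the animals with the highest mean of hepatocyte genes, 0.09.

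Cldn3, a barrier claudin found from the thick ascending limb onward, was at 0.28, 0.51 and 0.34 with corn oil and at 0.25, 1.00 and 0.44 with tricresyl phosphate. A single animal, treated replicate 2, stood above the rest. The difference was 0.19 ± 0.20 (SE) with an interval from −0.30 to 0.68, and −0.03 without treated replicate 2. The other probe of Cldn3 did not show the high value of that animal, at −0.21 against −0.22 and −0.44 in the other treated animals, and differed by 0.02 ± 0.10 (SE). Cldn7, which lies along the sides of distal tubule and collecting duct cells, was at −0.45, −0.45 and −0.22 with corn oil and −0.47, −0.27 and 0.06 with tricresyl phosphate. Only treated replicate 3 lay above the controls, and the difference was 0.15 ± 0.16 (SE) with an interval from −0.24 to 0.53. Without that animal it was 0.00. Cldn3 and Cldn4 lie close together on chromosome 12, with 2 genes between them in the RefSeq order and none of these coding for protein.

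The 250 bases before the annotated starts of Cldn3, Cldn7 and Cldn8 in GRCr8 are shown because these genes share both a site and the sign of their difference. Cldn4, which shares them too, is named only. Capitals again mark the GC box. They lie at chr12:27346548-27346797 (- strand), chr10:55188420-55188669 (+ strand) and chr11:41364331-41364580 (- strand).
Cldn3: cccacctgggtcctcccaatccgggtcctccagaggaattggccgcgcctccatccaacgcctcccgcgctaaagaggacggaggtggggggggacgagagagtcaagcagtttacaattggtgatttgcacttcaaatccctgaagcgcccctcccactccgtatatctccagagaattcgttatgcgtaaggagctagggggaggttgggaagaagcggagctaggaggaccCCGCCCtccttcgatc
Cldn7: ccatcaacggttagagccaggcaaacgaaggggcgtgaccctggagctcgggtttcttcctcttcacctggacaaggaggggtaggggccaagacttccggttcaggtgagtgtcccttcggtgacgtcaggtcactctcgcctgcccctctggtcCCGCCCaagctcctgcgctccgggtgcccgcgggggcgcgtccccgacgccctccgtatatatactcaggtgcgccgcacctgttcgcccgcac
Cldn8: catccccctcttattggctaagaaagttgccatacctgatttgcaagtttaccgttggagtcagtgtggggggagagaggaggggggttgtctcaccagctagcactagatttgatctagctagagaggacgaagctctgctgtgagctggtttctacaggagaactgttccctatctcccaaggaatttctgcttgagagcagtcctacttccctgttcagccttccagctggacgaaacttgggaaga
Cldn3 and Cldn7 had 1 GC box each and Cldn8 had 0. The share of G and C bases was 59.2%, 65.6% and 50.4%.

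Markers of the collecting duct lay beside these claudins. Of 11 principal cell markers 10 were higher and 1 lower, with a median of 0.15, and none passed at an adjusted limma p under 0.05. The mean level of the list was 2.24 to 2.41 in the controls and 2.43 to 2.62 in the treated animals. Aqp2, the water channel regulated by vasopressin, was the 1 marker below 0, with a difference of −0.04 ± 0.18 (SE), and its dimmer probe differed by 0.09. The groups did not overlap in 3 of the 11, against 11.8% of all genes in either direction. All 3 were higher and are picked out here after their values were seen. These were the water channel genes Aqp4, at 0.45 ± 0.14 (SE), and Aqp3, at 0.18 ± 0.09 (SE), and the keratin gene Krt8, at 0.17 ± 0.09 (SE), each with an adjusted limma p of 0.811. Of 8 intercalated cell markers 6 were higher and 2 lower, with a median of 0.16, and of 6 distal convoluted and connecting tubule markers 6 were higher, with a median of 0.08. The groups did not overlap in 2 of these 8 and in 1 of these 6, all higher. Slc12a3, the thiazide-sensitive cotransporter, differed by 0.05 ± 0.16 (SE). The centred mean of the 4 claudins was −0.16, −0.20 and 0.01 in the controls and −0.11, 0.20 and 0.27 in the treated animals. That of the principal cell list was −0.04, −0.19 and −0.02, then 0.05, 0.00 and 0.19. Corn oil replicate 2 was lowest and treated replicate 3 highest in both. The intercalated cell list was at 0.02, −0.22 and 0.01, then 0.24, 0.06 and −0.11. Its lowest animal was also corn oil replicate 2, but its highest was treated replicate 1. The distal convoluted and connecting tubule list was lowest in corn oil replicate 2 (−0.33) and highest in corn oil replicate 3 (0.20). The part of the marker levels in the claudin levels was not tested.

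**Figure D2:**
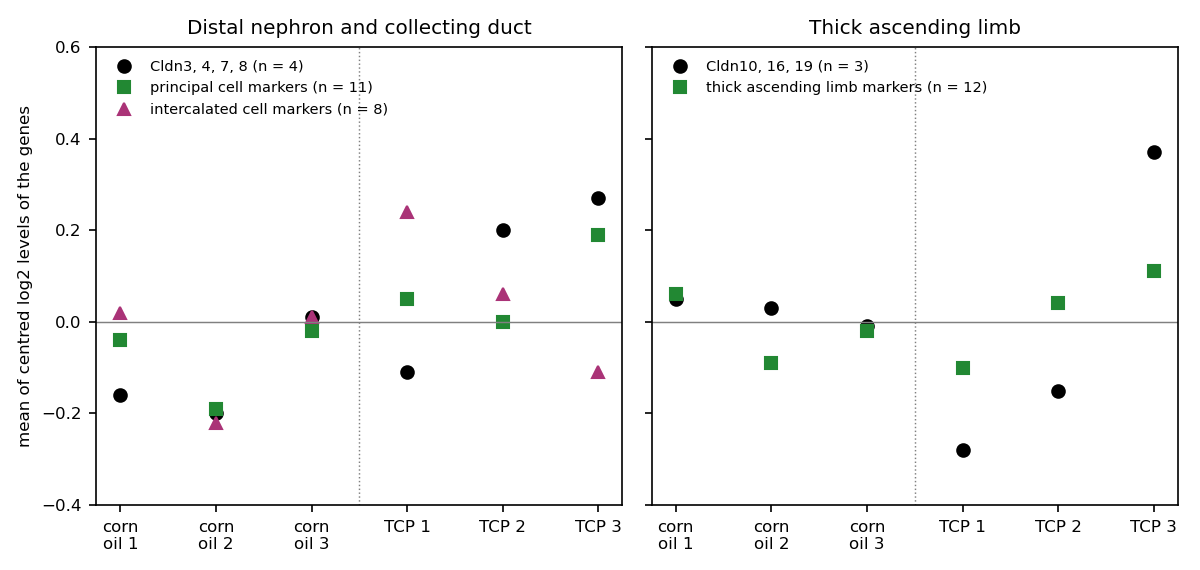
Mean of the centred log2 levels per animal (each gene minus its mean over the 6 animals) for the claudins of a segment in black and for marker genes of the same segment in colour; TCP is tricresyl phosphate. On the left, Cldn3, Cldn4, Cldn7 and Cldn8 and the principal cell markers are both lowest in corn oil replicate 2 and highest in treated replicate 3. The intercalated cell markers are highest in treated replicate 1 (0.24). On the right, Cldn10, Cldn16 and Cldn19 run from −0.28 in treated replicate 1 to 0.37 in treated replicate 3.

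Outside the tubule, Cldn1 marks the parietal epithelium of Bowman's capsule. It was at −0.25, −0.75 and −0.64 with corn oil and −0.69, −0.87 and −1.12 with tricresyl phosphate. Treated replicates 2 and 3 lay below every control, and treated replicate 1 lay among them. The difference was −0.35 ± 0.18 (SE), 0.786-fold, with an interval from −0.78 to 0.08 and an adjusted limma p of 0.811. Within the shared slide, which leaves out corn oil replicate 1, the highest animal, it was −0.20.

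The 3 probes of Cldn1 did not give the same size. The second differed by −0.60 ± 0.21 (SE), with an unadjusted limma p of 0.026 among single probes, and the dimmest by −0.02 ± 0.19 (SE). In the dimmest, treated replicate 3, at −2.05, lay above corn oil replicates 2 and 3, at −2.49 and −2.29. With normexp background correction followed by quantile normalization the gene's difference was −0.55. Parietal epithelium markers had a median of 0.00, with 2 of 6 higher and 4 lower. The lower ones lay between −0.05 and 0.00, and both higher ones were at 0.19. Cldn1 is the neighbour of Cldn16 on chromosome 11, with 1 gene between them in the RefSeq order, and their differences had opposite signs.

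Cldn5 seals the junctions of endothelial cells. It varied least of the 10 claudins, at 0.06, 0.32 and 0.26 in the controls and 0.10, 0.24 and 0.03 in the treated animals. All treated values but the lowest lay inside the span of the controls. The difference was −0.09 ± 0.11 (SE), with an interval from −0.36 to 0.17 and an adjusted limma p of 0.871, and it was −0.17 within the shared slide. Of 10 endothelial markers 6 were higher and 4 lower, with a median of 0.08. At an unadjusted limma p under 0.05 there were 3 of the 10, all higher, against 1.63% of all genes in that direction. Their sign was opposite to that of Cldn5, and their groups did not overlap, which happened in 11.8% of all genes in either direction. They were Flt1, a VEGF receptor, at 0.56 ± 0.15 (SE), Tie1, an endothelial receptor kinase, at 0.25 ± 0.08 (SE), and Esam, an endothelial adhesion molecule, at 0.25 ± 0.09 (SE), named after their values were seen, each with an adjusted limma p of 0.811. The groups of the endothelial marker Plvap, also named after its values were seen, did not overlap either. Plvap was lower, the same sign as Cldn5, at −0.17 ± 0.09 (SE). Cdh5, the endothelial cadherin, differed by −0.07 ± 0.12 (SE), and Nphs1, the nephrin gene of podocytes, by −0.04 ± 0.13 (SE).

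**Figure D3:**
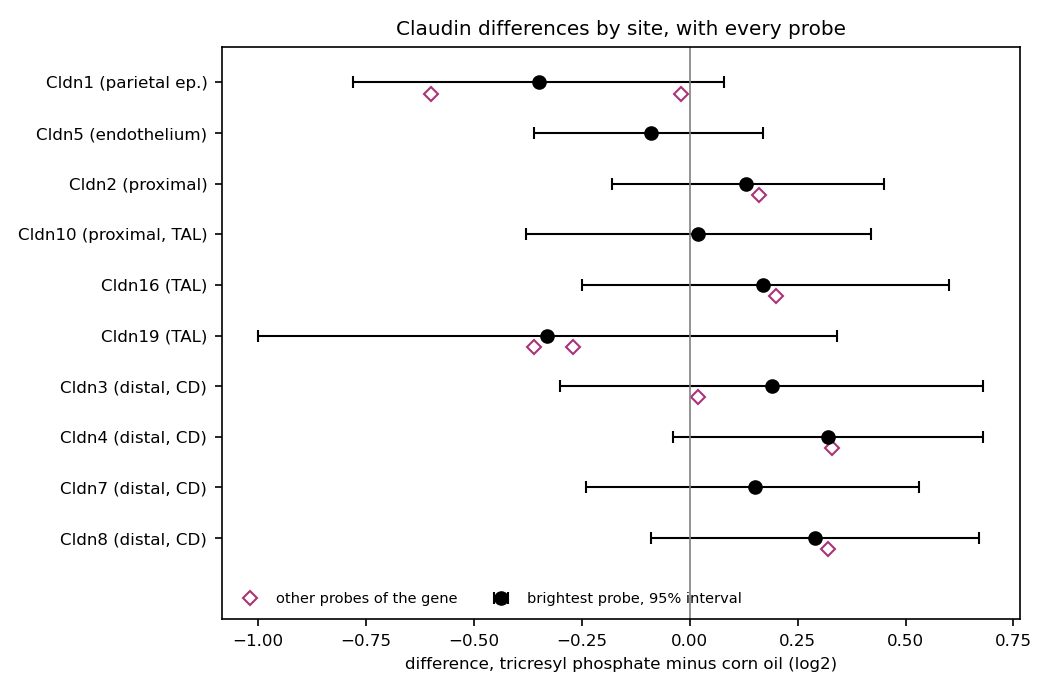
Difference of each claudin, tricresyl phosphate minus corn oil, on the log2 scale, ordered by site. Black points are the brightest probe with its 95% interval from limma and open diamonds are the other probes of the same gene. All 10 intervals include 0, and the probes of Cldn1 spread from −0.60 to −0.02.

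Where a claudin had several probes, all of them gave 1 sign, in 7 of 7 genes. For Cldn1 and Cldn3 this includes a probe close to 0, at −0.02 ± 0.19 (SE) and 0.02 ± 0.10 (SE). Over all genes 58.3% of 6504 symbols with several kept probes did so. Those symbols include genes with more probes than any claudin, such as Tjp1 with 5 besides its brightest. They also include probes well above background on only 3 arrays, so the shares are not from like sets. Probes of a gene read the same RNA of the same animals and are not replicates. The remaining 3 claudins, Cldn5, Cldn7 and Cldn10, had a single probe.

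The partners of claudins in the tight junction gave no call. Of 27 scaffold, polarity and junction genes measured from a list of 33, 13 were higher and 14 lower, with a median of −0.01. Tjp1, the scaffold protein ZO-1 that anchors claudins to actin, differed by −0.09 ± 0.09 (SE), with its other probes between −0.11 and 0.25. Ocln, occludin, differed by 0.01 ± 0.16 (SE), with its other probes at −0.13 and 0.19. Of 22 kinases, receptors and transcription factors that act on claudins in the nephron, 11 were higher and 11 lower, with a median of 0.01.

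Of 15 further claudins listed, 9 were measured, 6 of them higher and 3 lower, and 0 passed at an adjusted limma p under 0.05. At an unadjusted limma p under 0.05 there were 2, both higher, against 1.63% of all genes in that direction. They are Cldn9 and Cldn6, claudins of the newborn proximal tubule, and are named here after their values were seen. Cldn9 was at 0.87, 0.77 and 0.79 with corn oil and at 1.15, 1.29 and 0.97 with tricresyl phosphate. All treated animals lay above all controls, and the difference was 0.32 ± 0.11 (SE). The adjusted limma p of Cldn9 was 0.811. Cldn6, close to the dim end of the array, was at −5.21, −5.53 and −4.78 with corn oil and −3.73, −4.87 and −3.64 with tricresyl phosphate, a difference of 1.09 ± 0.37 (SE) with overlapping groups and an adjusted limma p of 0.811.

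The claudins with the widest range over the 6 animals were Cldn19 (0.96) and Cldn1 (0.87). Among 12411 genes with a symbol, the levels nearest to those of Cldn19, each centred on its mean, were those of Mcpt1, Ces2j and Slc2a12, with a root mean square difference of 0.08, 0.10 and 0.13 over 6 animals. Nearest to Cldn1 were Cd247, Slc24a2 and Tbx1, at 0.06, 0.08 and 0.09. With 6 animals and this many genes, close matches are to be had for any profile.

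**Figure D4:**
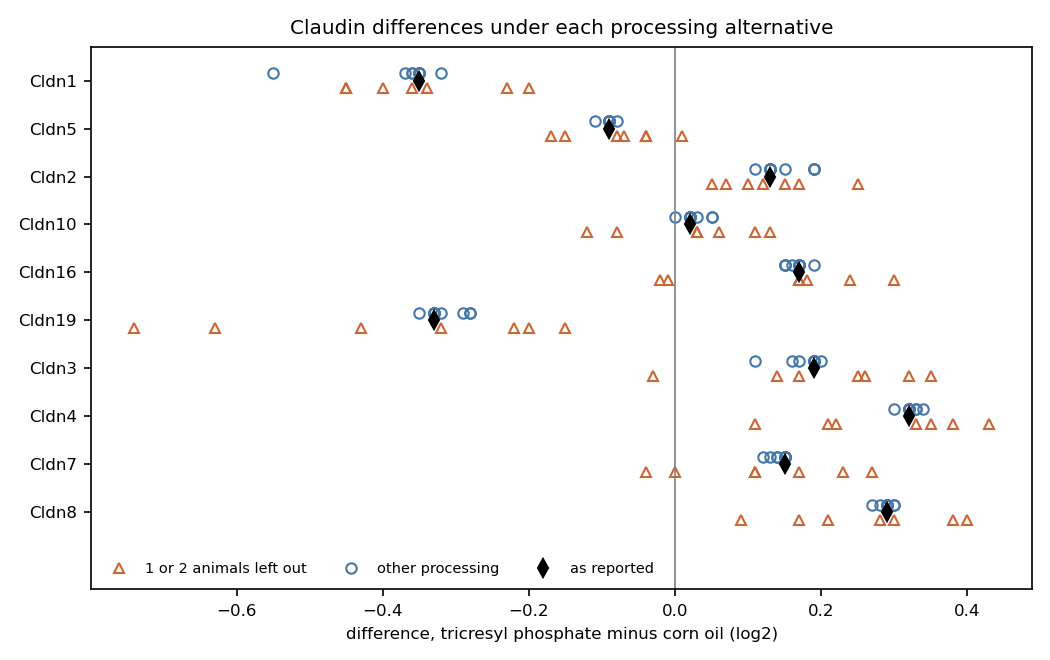
Difference of each claudin, tricresyl phosphate minus corn oil (log2), as reported (black diamonds), with other processing of the same 6 arrays (blue circles) and with 1 or 2 animals left out (orange triangles). From lowest to highest, the values span more when animals are left out than under the other processing for all 10 claudins, for Cldn19 from −0.74 to −0.15. The value of Cldn1 farthest from the reported one, −0.55, came from other processing.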

How the data were processed

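The authors scanned 6 Agilent arrays and quantified them in Agilent Feature Extraction (10.7 per the submitters' processing notes, and more exactly 10.7.1.1 in the headers). Per the file headers, the intensity deposited is a linear processed signal, background-subtracted and detrended within the array, with the median signal of spot and background beside it. The authors' value table holds the same intensity divided by 1 number per array: over probes brighter than 1000 the ratio varied by at most 0.00147%, and the column medians lay between 0.1094 and 0.1152. Its scale is therefore linear and uncentred; the software behind that division is not given in sources used here.

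Non-control probes (61537 per array) were named through their accession in the RefSeq table of GRCr8: 28206 had 1 symbol, 0 several and 33331 none. The array was designed on rn4. Outlier spots (77 in all) were set missing, no claudin probe lost a value that the text uses, and none was saturated. The processed signal was put on the log2 scale and the array's 75th percentile subtracted. Probes well above background on at least 3 of 6 arrays were kept (43099), and the brightest kept probe stood for a gene. The test was limma (3.58.1, under R 4.3.3; lmFit, then eBayes), two-sided, adjusted by Benjamini-Hochberg over 31637 genes, at 0.05. On simulated data with 200 changed genes, 59.5% were recovered for a log2 change of 1 and 97% for 2. False calls numbered 7 and 12. The simulated noise was normal and independent between genes, at limma's variance for each gene. It held no animal that stands apart, so recovery on the real arrays can differ. The reported claudin differences were smaller than these changes, the largest in size being −0.35 for Cldn1. The simulation therefore does not tell how often a change of the size seen in these 10 claudins would be found. The number of arrays, 6, limits the precision. Normexp used the median spot signal, as no mean is in the files.

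All 10 claudins are named whatever their values. Members, marker lists and named genes were chosen with earlier results of these data known. Other genes named are a defining marker per site, Tjp1 and Ocln, and the 3 nearest profiles of the 2 most variable claudins. Aqp3, Aqp4, Krt8, Flt1, Tie1, Esam, Plvap, Apob, Tf, Cldn6, Cldn9, Cldn22 and Cldn24 were named after their values were seen. The lists of macrophage and lymphocyte, red cell, fat cell, stromal, inner medulla and tubular injury markers had 0 members passing, with medians of 0.00, −0.34, 0.12, −0.03, 0.05 and −0.10; podocyte and hepatocyte markers had medians of −0.05 and 0.17. Alternatives were other normalizations, filters, probe summaries and variance models, the slide and the replicate number as blocks, and leaving out animals.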

Additional observations from a re-analysis of the deposited data

How the results depend on the processing

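No claudin passed under any of the 18 alternatives run. They amount to 17 different fits, since the slide as a block and leaving out corn oil replicate 1 are the same fit, and over these 163 of 170 claudin values kept their sign. The 7 that turned were all from leaving out animals: Cldn10 without corn oil replicate 3 (−0.12) or tricresyl phosphate replicate 3 (−0.08), Cldn16 without tricresyl phosphate replicate 3 (−0.02), Cldn3 without tricresyl phosphate replicate 2 (−0.03), and, with corn oil replicate 2 left out together with tricresyl phosphate replicate 3, Cldn5 (0.01), Cldn7 (−0.04) and Cldn16 (−0.01). Over the fits that leave out 1 animal, the differences ran from −0.03 to 0.35 for Cldn3, −0.12 to 0.13 for Cldn10 and −0.02 to 0.30 for Cldn16; with the pair left out counted too, they ran from −0.17 to 0.01 for Cldn5 and −0.04 to 0.27 for Cldn7. That last alternative was chosen after seeing the data. Leaving out 1 animal moved the median of the claudins between −0.01 and 0.26, and fewer samples entered each such fit. Over all genes, 2 passed with normexp and quantile normalization, 2 with the trended robust variance model, and 0 to 1 when 1 animal was left out, none of them a claudin; the cause was not tested. Nothing in the sample labels says that the replicate numbers pair the animals. Same-numbered deviations from the group means correlated at 0.086, −0.051 and −0.044, and not every sample correlated best with its own number. With 3 animals in a group, these correlations cannot exclude a pairing. The fit with the replicate block called 0 genes and 0 claudins, with a claudin median of 0.14. That block lowered the SE of most claudins, for Cldn4 from 0.15 to 0.10, and raised that of Cldn10 from 0.17 to 0.19. At an unadjusted limma p under 0.05 the alternatives gave 0 to 2 claudins.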
